A study of Mus musculus with 3 samples.

Results

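The regions described here are the TBX1 ChIP-seq peaks that lay within protein-coding genes. Peaks of the 3 deposited lists, 1 list per replicate, were joined into merged regions when they overlapped by at least 1 bp, with no filter on strength. A merged region was kept when its midpoint fell between the start and the end of a protein-coding gene record of GENCODE vM1, on the mouse assembly NCBIM37, which the authors call mm9. Of 711 merged regions, 317 were inside such a gene (44.6%, 95% exact binomial interval 40.9 to 48.3) and 394 were outside. Protein-coding genes covered 38.9% of the sequenced chromosome length.

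TBX1 is a T-box transcription factor, a protein that binds DNA and is needed in the mesoderm and epithelia of the pharynx, from which the outflow tract of the heart and the muscles of the face and jaw are built. Factors of this kind often bind far from promoters, and many enhancers lie in introns, either of the gene they act on or of a neighbour. A peak in an intron therefore names the gene that holds the site, called the host here, and not a regulated gene. T-box proteins often share enhancers with homeodomain proteins of the MEIS, PBX and TGIF families, which bind words containing TGACAG or TGAT.

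Each of the 3 samples was a pool of 20 whole embryos at embryonic day 9.5, of mixed strain, double homozygous for the Tbx1 3'-Avi allele and for BirA at Gt(ROSA)26Sor. The Avi peptide is a short tag at the end of TBX1 that the biotin ligase BirA labels with biotin, so that bound chromatin can be drawn out with streptavidin. Both alleles were present in every sample, and BirA was made in all tissues, so the lists mix all TBX1-expressing cell types of the embryo. There was 1 condition, and embryos with BirA alone were not analysed here. Pools of embryos were the replicates, and peaks were called in each against its input.

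The lists differed in size, with 146, 646 and 296 peaks in replicates 1, 2 and 3, of which 66, 294 and 141 lay inside genes (45.2%, 45.5% and 47.6%). The lists do not give the number of reads under a peak, so fold enrichments are printed with their spread over replicates alone, and intervals of shares cover counting error only. A total of 17 regions, 6 of them in at least 2 lists, lay at the start of chromosome 9 (chr9:3001190-3038249) in 11 short predicted genes with a median length of 1409 bp. Their fold enrichments were 1.30 to 1.72, none was in replicate 3 and none overlapped the consensus list. The read-through record Gm20388 spans 4434.9 kb and was the host of 5 further regions. The share of regions inside genes was 44.0% without all regions of this stretch of chromosome 9, another 12 of which lay outside genes, and 43.9% when the Gm20388 regions were counted as outside. Several results below are given with and without these regions.

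The sequences of 5 regions with peaks in all 3 lists are shown first, because they hold the words that set these regions apart from nearby sequence. Each is 121 bases centred on the mean of the summits, read on the plus strand of NCBIM37. Capitals mark the words GGTGNTGA (a spaced T-box word), GGTGTGA (a T-box word), TGACAG (bound by MEIS and TGIF proteins), TGATTGAT (bound by PBX proteins) and GAGTGATG on either strand. The last of these was chosen after the sequences were seen, and the others with earlier results of these data known.
Kcnh1 chr1:194201616-194201736: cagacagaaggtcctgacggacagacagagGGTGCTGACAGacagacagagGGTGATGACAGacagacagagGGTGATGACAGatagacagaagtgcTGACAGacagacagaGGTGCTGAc
Pvrl1 chr9:43577019-43577139: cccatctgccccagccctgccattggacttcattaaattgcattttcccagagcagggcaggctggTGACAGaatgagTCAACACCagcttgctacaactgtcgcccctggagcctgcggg
Tnnt1 chr7:4461677-4461797: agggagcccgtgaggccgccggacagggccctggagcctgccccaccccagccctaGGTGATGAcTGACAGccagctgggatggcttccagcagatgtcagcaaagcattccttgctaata
Lpp chr16:24605713-24605833: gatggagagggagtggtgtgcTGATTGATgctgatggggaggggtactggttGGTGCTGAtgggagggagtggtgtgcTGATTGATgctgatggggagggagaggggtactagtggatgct
Gnb1l chr16:18509459-18509579: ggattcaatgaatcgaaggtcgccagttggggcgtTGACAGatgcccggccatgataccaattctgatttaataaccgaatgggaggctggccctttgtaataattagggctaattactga

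In Kcnh1, which encodes a voltage-gated potassium channel, GGTGNTGA ran straight into TGACAG 3 times. The last letters of the spaced T-box word are the first letters of the MEIS word. These 3 matches are copies of a repeated unit of 21 bases and not separate sites. In this window 67% of the bases equalled the base 21 positions before, which is below the limit for a tandem repeat given later. In Pvrl1, the gene of the adhesion protein nectin-1, and in Tnnt1, the slow skeletal troponin T gene, both words stood side by side near the middle of the window. Lpp, which encodes a LIM protein of adhesion sites, held a spaced T-box word between a pair of PBX words. The Gnb1l window held TGACAG, and its joined word lay elsewhere in the region.

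A second set of windows in all 3 lists had a different make-up, and is shown because it includes the 2 highest ranked regions. They are arrays of the unit GGAT or its complement with no word in capitals, except that Rnf24, which encodes a RING finger protein, had a 34-base unit that carried the spaced T-box word in each copy.
Chd1 chr17:15859885-15860005: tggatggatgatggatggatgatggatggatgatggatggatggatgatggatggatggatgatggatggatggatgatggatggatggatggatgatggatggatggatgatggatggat
Laptm5 chr4:130488948-130489068: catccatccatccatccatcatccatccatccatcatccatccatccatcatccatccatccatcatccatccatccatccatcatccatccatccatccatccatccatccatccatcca
Rnf24 chr2:131130742-131130862: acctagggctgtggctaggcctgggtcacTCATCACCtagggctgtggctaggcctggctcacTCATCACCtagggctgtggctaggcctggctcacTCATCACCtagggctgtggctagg

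A window was called a tandem repeat when at least 80% of its bases equalled the base 1 period before, for any period up to 40 bases. By this measure, chosen after the sequences were seen, 30 of the 317 regions inside genes had a tandem repeat at the summit (9.46%, 95% exact binomial interval 6.48 to 13.2). The measure called 0 of the 17 regions of chromosome 9, which share sequence with each other and count as non-repeats here. Outside genes the share was 8.38%, and in windows 5 kb to the right of the regions inside genes it was 1.26%. Among regions inside genes with peaks in 3 lists, 9 of 46 were repeats, against 12 of 92 in 2 lists and 9 of 179 in 1 list. Outside genes the counts were 8 of 47, 6 of 94 and 19 of 253. Repeats overlapped the consensus list in 17 of 30 cases (56.7%, 95% exact binomial interval 37.4 to 74.5), against 36.9% of all regions inside genes. By mean percentile of fold enrichment within the lists, defined below, the median of repeats was 42.7, against 48.0 for regions with no repeat. A run of at least 3 GGAT units stood in 14 regions, 6 of them in 3 lists, and in 0 windows. In all, 57 regions, some of them repeats, shared a run of 25 bases with another region inside a gene and fell into 6 families (18.0%, against 10.7% of windows that shared such a run with another window), so that regions of a family are not independent of each other. The largest families were the 17 regions of chromosome 9, 15 regions in hosts such as Flt1 and Lama1, and 13 regions that held the GGAT array. The part of repeat structure in the enrichment of these peaks was not tested.

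The windows printed first were chosen for the words they hold, which were less common over the whole set. GGTGNTGA was in 71 of 317 regions (22.4%, 95% exact binomial interval 17.9 to 27.4), TGACAG in 140 (44.2%, 38.6 to 49.8) and the E-box word CAGCTG, bound by basic helix-loop-helix proteins, in 70 (22.1%, 17.6 to 27.1). In equally wide windows placed 5 kb to the right these shares were 5.36%, 16.1% and 12.3%. The PBX word TGATTGAT was in 5.99% of regions and 0.631% of windows. Regions outside genes held GGTGNTGA in 19.3%, TGACAG in 42.1% and TGATTGAT in 9.14%, and these differences from regions inside were not tested. The GC content had a median of 50.6% in the regions and 44.9% in the windows, and its part in the word shares was not tested.

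These words were chosen with earlier results of these data known, so the tests below describe the peaks and are not separate support. The difference between regions and windows was taken within each list and then tested over the 3 lists. Replicates 1 and 3 shared 62 and 122 of their regions inside genes with replicate 2, so the lists are compared in large part over the same regions and windows, and a common sign in 3 lists is not support from separate regions. For GGTGNTGA it was 15.2, 17.7 and 15.6 percentage points in replicates 1, 2 and 3 (mean 16.1 ± 1.35, SD, n = 3, exact sign-flip permutation p = 0.25, two-sided). For TGACAG it was 40.9, 28.6 and 33.3 points (mean 34.3 ± 6.22, SD, exact permutation p = 0.25). CAGCTG differed by a mean of 12.6 ± 2.74 points and TGATTGAT by 4.45 ± 2.58 points, each higher in regions in 3 of 3 lists (exact permutation p = 0.25). A p of 0.25 is the smallest that 3 lists allow, so none of the 12 comparisons made in this way could reach 0.05, and after Benjamini-Hochberg adjustment the smallest value was 0.375.

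Other words, chosen in the same way, were less frequent in regions than in windows. The bicoid-type homeodomain word TAATCC differed by −11.1 ± 6.61 points (SD, regions minus windows), the forkhead word TGTTTAC by −5.02 ± 3.75 points and the general homeodomain word TAATTA by −3.49 ± 1.08 points, each lower in regions in 3 of 3 lists (exact permutation p = 0.25). Without replicate 1 the TGTTTAC difference was −2.98 points, and with windows to the left the TAATTA difference was −1.19 points. The unspaced T-box word GGTGTGA was in 13 regions (4.10%) and 4.73% of windows, with differences of −4.55, 0 and 2.13 points that had no common sign (exact permutation p = 1), and the mean was 1.06 points without replicate 1 and −2.27 without replicate 3. Of its 8 regions in at least 2 lists, 4 were copies of a single sequence in Tex14.

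Within regions, the spaced T-box, MEIS and PBX words sat close to the summit, and the other words did so less or not at all. GGTGNTGA had its nearest copy a median of 22.0 bp from the mean summit, against 71.0 bp from the centre of the windows that held it, and TGACAG 24.5 against 66.0 bp. TGATTGAT stood at a median of 22.0 bp in its 19 regions, and 2 windows held it. After repeats were left out, the 25 bp to the right of the summit held 6.97 spaced T-box words per 100 regions, compared with 0.697 at the same place in the windows. CAGCTG was spread more evenly, at a median of 49.0 bp from the summit against 54.0 bp in windows. The rarer words had medians of 48.5 bp for GGTGTGA (47.5 in windows), 52.0 bp for TAATCC (46.0), 62.5 bp for TGTTTAC (75.5) and 83.0 bp for TAATTA (76.0).

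**Figure D1:**
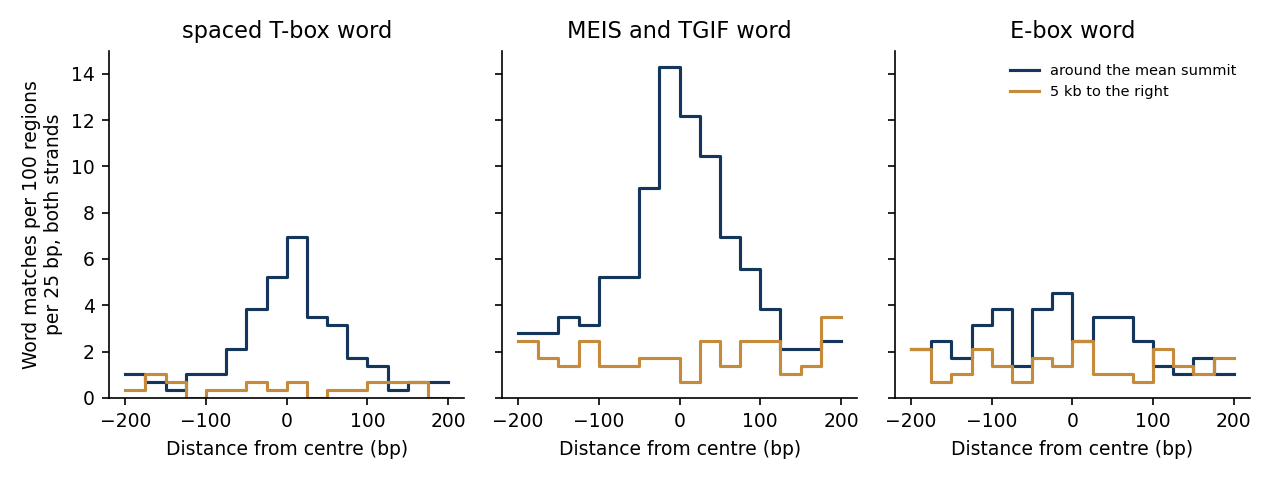
Matches of 3 words per 100 regions inside genes in bins of 25 bp (y axis) against distance from the mean summit in bp (x axis), for the 287 regions with no tandem repeat at the summit and for positions 5 kb to the right. The 287 regions include the 17 of chromosome 9. The MEIS and TGIF word reached 14.3 matches per 100 regions in the bin left of the summit, while the bins at the same place in the windows stood at 1.74 or lower.

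A spaced T-box word joined to TGACAG in 1 run was found in 12 regions inside genes (3.79%), 21 regions outside (5.33%) and 0 windows, which allows a share of up to 3 counts in 317 windows. Their hosts were Plekha4, Gnb1l and Kcnh1 in 3 lists, Zbtb7c, Cd47, Glis1 and Ctf1 in 2 lists, and Kif6, C7, Dmrt1, Kalrn and Myo18b in 1 list. All 12 were intronic. Either word was present in 182 regions (57.4%), against 50.8% outside genes and 19.6% of windows, and in 33 of the 46 regions with peaks in 3 lists (71.7%).

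GAGTGATG was in 6 of the 46 regions in 3 lists (13.0%), whose hosts were Lrp6, Ror1, Pdxp, Gchfr, Emid2 and Daam1, and none of these windows held GGTGNTGA or TGACAG. Outside their windows, the regions of Lrp6 and Ror1 did hold TGACAG. The windows of Ror1, Lrp6 and Daam1 are shown because these hosts are described again under the Wnt pathway list.
Ror1 chr4:100017305-100017425: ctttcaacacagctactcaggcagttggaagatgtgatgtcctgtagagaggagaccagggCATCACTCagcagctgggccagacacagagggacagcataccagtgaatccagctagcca
Lrp6 chr6:134454940-134455060: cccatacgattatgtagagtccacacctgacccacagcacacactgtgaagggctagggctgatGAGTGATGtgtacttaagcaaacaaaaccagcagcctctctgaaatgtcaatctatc
Daam1 chr12:72967460-72967580: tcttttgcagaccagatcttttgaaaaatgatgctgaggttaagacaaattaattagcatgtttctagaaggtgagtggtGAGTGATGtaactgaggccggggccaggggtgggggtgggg

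GAGTGATG was in 27 regions inside genes (8.52%), 19 outside (4.82%) and 1 window (0.315%), at a median of 13.0 bp from the summit. Of the 27, 11 held neither GGTGNTGA nor TGACAG anywhere in the region. The word was picked from these regions, so the counts describe them and were not tested.

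Agreement between lists was taken next. Of the 317 regions inside genes, 179 had peaks in 1 list, 92 in 2 and 46 in 3. The 138 in at least 2 lists were 43.5% of the set, against a background of 39.2% over all merged regions and 35.8% outside genes. Peaks in all 3 lists made up 14.5% inside genes, against 13.1% over all merged regions. Most regions in 1 list came from the longest list, with 156 in replicate 2 only, 19 in replicate 3 only and 4 in replicate 1 only. Within each list, the share of peaks that met a peak of another list was higher inside than outside genes by 3.94, 7.73 and 6.52 points in replicates 1, 2 and 3 (mean 6.07 ± 1.94, SD, n = 3, exact sign-flip permutation p = 0.25). A shared region counts in each list that holds it, so the 3 differences are tied and their common sign is not separate support. Without replicate 2 the mean difference was 2.51 points and held its sign in 1 of 2 lists.

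Strength within the list had no common direction. Column 7 of the lists, the ratio of ChIP to local background at the summit, or fold enrichment, was ranked within each list and written as a percentile from 0 to 100. The median percentile of peaks inside genes was 55.7, 48.5 and 46.3 in replicates 1, 2 and 3, and outside it was 45.9, 50.9 and 50.2. Inside was higher in replicate 1 only, and the mean difference was 1.18 points (SD 7.53, exact permutation p = 1). It was −3.15, 2.96 and 3.71 points without replicates 1, 2 and 3 in turn. Median fold enrichments inside genes were 6.70 (range 1.34 to 23.6), 6.25 (1.30 to 23.1) and 6.07 (1.90 to 18.6). Across the regions that 2 lists shared, Spearman's correlation of fold enrichment was 0.675 for replicates 1 and 2 (62 regions), 0.400 for 1 and 3 (46 regions) and 0.614 for 2 and 3 (122 regions), as a description across regions, which are not independent. Leaving out chromosome 9 lowered the first of these to 0.559.

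**Figure D2:**
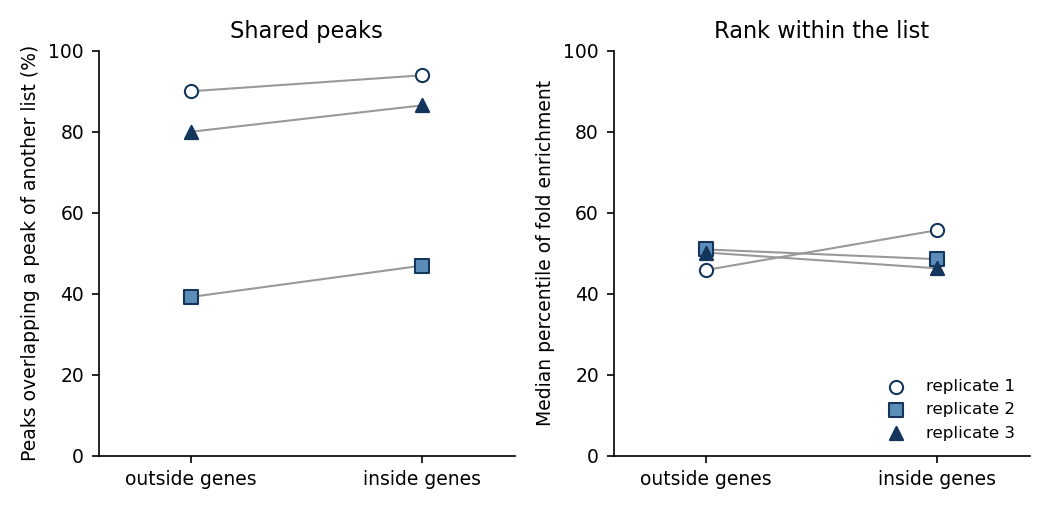
Share of peaks that overlapped a peak of another list in percent (left) and median percentile of fold enrichment within the list (right), for peaks outside and inside protein-coding genes. Each symbol is 1 replicate and lines join values of the same list. The shared percentage was higher inside genes in all 3 lists, where a shared region counts in each list that holds it. The percentile was higher inside in replicate 1 only.

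The consensus list, made by the authors from the same replicates, was overlapped by 117 regions inside genes (36.9%), against 35.4% over all merged regions and 34.3% outside. It took in 43 of the 46 regions in 3 lists, 64 of 92 in 2 lists and 10 of 179 in 1 list. Regions in 1 list do not meet the authors' rule of at least 2 replicates, and why 10 of them overlapped was not tested. There were 31 regions in at least 2 lists with no consensus overlap, and their median of mean percentiles was 31.0, against 61.9 for the 107 with one. Without the 6 of chromosome 9 the median of the other 25 was 34.5. The authors also took peaks on the ENCODE blacklist out of the consensus. That blacklist was not used here, and its part in these 31 regions and in those of chromosome 9 was not tested. Of the 255 consensus regions, 120 had their own midpoint inside a gene (47.1%). Without replicate 2 the overlapping share of the remaining regions was 68.9%.

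The strongest hosts of regions in all 3 lists are described next, chosen by the mean percentile over the lists. Chd1 encodes a chromatin remodelling helicase, and its region chr17:15859586-15860161 lay in intron 2 of 35 with fold enrichments of 11.3, 14.6 and 17.1 in replicates 1, 2 and 3. Laptm5 encodes a lysosomal membrane protein of blood cells, and its region in the last intron (chr4:130488491-130489485) had 23.6, 17.4 and 11.7. Both are GGAT arrays, shown above, and the order of the replicates was opposite in the 2 regions. Their mean percentiles were the highest of the 317, at 98.0 and 97.8.

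Plekha4, which encodes a pleckstrin homology domain protein, came next with a region in intron 1 (chr7:52785301-52785723), 3.81 kb from the gene start, and fold enrichments of 10.3, 18.0 and 18.6. The Pvrl1 region (chr9:43576875-43577265), in intron 1 and 24.4 kb from the gene start, had 14.5, 13.1 and 11.1. Kcnh1 held its region (chr1:194201466-194201905) 187.0 kb from the start, in intron 7 of 10, with 9.94, 14.2 and 11.4.

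Gnb1l encodes a WD40-repeat protein and is the neighbour of Tbx1 itself on chromosome 16. Its region (chr16:18509211-18509800) lay in intron 2, 10.6 kb from the host start and 78.6 kb from the Tbx1 start, with fold enrichments of 11.2, 14.5 and 10.4. The 3 lists held 0 merged regions between it and the Tbx1 start, and 0 regions within Tbx1.

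The rest of the 10 highest in 3 lists were Btbd9, with 8.65, 22.3 and 16.8, Tshz2 with 9.73, 17.6 and 8.73, Slc43a2 with 8.28, 10.2 and 12.5, and Lpp with 8.61, 12.1 and 9.29. Btbd9 encodes a BTB domain protein and its window was a tandem repeat of 14 bases that holds TGACAG. Tshz2 is a teashirt zinc finger gene, and its region shared runs of 25 bases with the GGAT family without meeting the repeat limit. Slc43a2, an amino acid transporter gene, was the only one of the 10 with the midpoint in a coding exon. Regions in fewer lists that ranked above the Lpp region, at a mean percentile of 87.9, were those of Npsr1 at 94.9, Il23r at 93.5, Deptor at 93.5 and Fbn2 at 88.1 in 2 lists, and those of Gfra1, Aass and Ntn1 in 1 list.

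**Figure D3:**
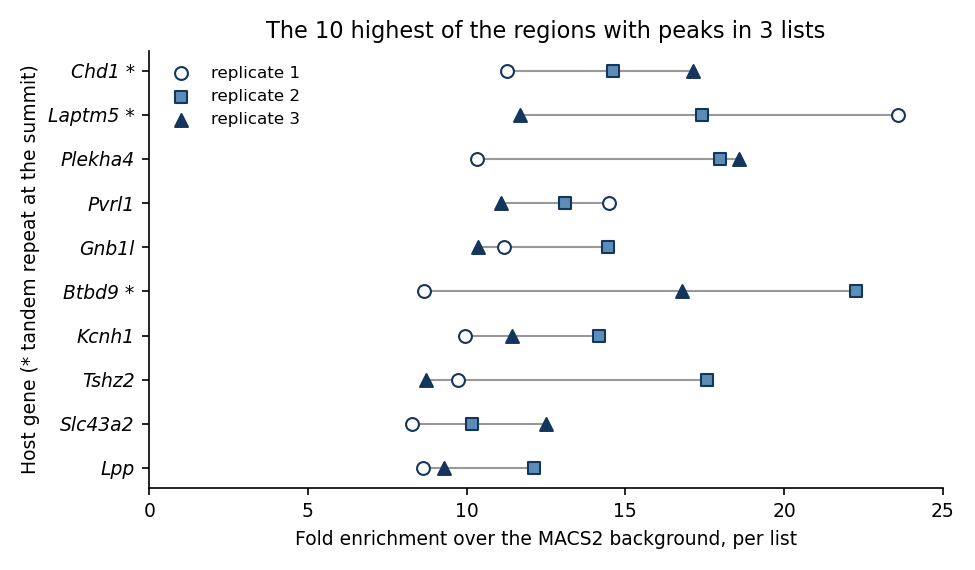
Fold enrichment over the MACS2 background (x axis) in each replicate for the 10 regions with the highest mean percentile among the 46 inside genes with peaks in 3 lists, by host gene (y axis), where an asterisk marks a tandem repeat at the summit. Values span 8.28 to 23.6, and replicate 1 is the lowest of the 3 in Chd1, Plekha4, Btbd9, Kcnh1, Slc43a2 and Lpp.

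Position in the host was mostly intronic. Midpoints lay in an intron in 272 regions (85.8%), in a coding exon in 21 (6.62%), in an untranslated exon in 17 (5.36%) and outside all coding transcripts of the gene in 7. Exons made up 6.75% of coding gene length and coding exons 3.59%. Of the 21 in coding exons, 12 were on chromosome 9 as above, which leaves 9 of 300 regions. Coding-exon regions in at least 2 lists were those of Slc43a2, Crtc2 (a coactivator of CREB), Meis3 (a MEIS homeodomain factor) and Mtap4 (a microtubule-associated protein), besides 5 in Gm11168, Gm10718, Gm10106 and Gm10715. Fold enrichments of the Meis3 region were 5.14 and 7.14 in replicates 2 and 3, of Crtc2 6.37 and 5.39, and of Mtap4 5.08 and 5.72, and GGTGNTGA was present in all 3 of these.

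The first intron held 89 of the 272 intronic regions (32.7%), the second 45, the third 22 and later introns 116. Over the same transcripts the first intron made up a mean of 27.2% of intron length. Per list, the share of intronic regions in the first intron minus its length share was −0.789, 5.83 and 1.30 points in replicates 1, 2 and 3 (mean 2.12 ± 3.38, SD, n = 3, exact sign-flip permutation p = 0.5). Without replicate 2 the mean was −0.824, a change of sign, and without replicate 1 it was 3.57. With the gene cut into 4 equal parts from start to end, the parts held 94, 89, 65 and 69 regions.

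Most regions were far from the start of their host. The distance had a median of 44.2 kb (quartiles 10.6 and 130.4), which was 48.0 kb without the chromosome 9 regions and 43.6 kb without Gm20388. It was taken to the start of the gene record and was shorter to the nearest transcript start, as given in the last section. The same distance was not taken for other bases of genes, so it is not a trait set against a background. There were 31 regions within 1 kb, 13 of them on chromosome 9, with 86 at 100 to 500 kb and 14 farther off. Of the 31 nearest, 12 were in at least 2 lists, or 7 of 18 without those of chromosome 9, and 1 was in 3 lists. This was the region over the start of Fanci, a Fanconi anaemia repair gene, with fold enrichments of 3.94, 7.84 and 4.46 and a tandem repeat at the summit. Starts with a region in 2 lists, other than those of chromosome 9, were of Ankfy1, Mtch1, Zhx3, Dbndd2, Crtc2 and Ctf1. Ctf1 encodes the cytokine cardiotrophin, and its region held the joined word 0.104 kb from the start, with fold enrichments of 4.06 and 3.91.

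**Figure D4:**
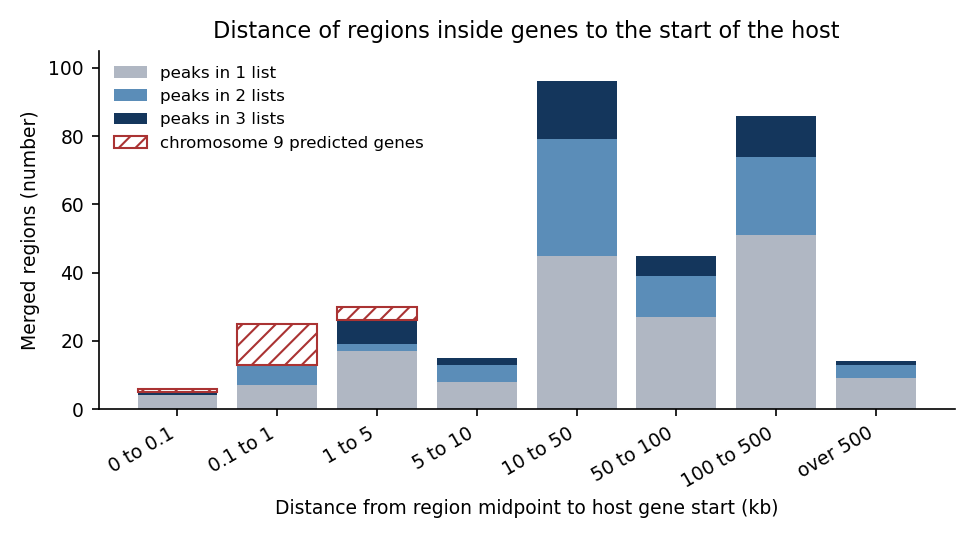
Number of merged regions inside genes (y axis) by distance from midpoint to host start in kb (x axis, unequal bins), split by the number of lists with a peak and with the chromosome 9 predicted genes hatched. The 10 to 50 kb bin holds 96 regions and the 100 to 500 kb bin 86, while the 31 regions within 1 kb include 13 hatched ones.

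Strength was compared between regions within 10 kb of the host start and those farther off. The median percentile of near regions minus far ones was −23.1, −18.4 and 2.80 points in replicates 1, 2 and 3 (mean −12.9, SD 13.8, exact sign-flip permutation p = 0.5). Without the chromosome 9 regions the mean difference was −1.33 points. It was −7.83 without replicate 1 and −20.8 without replicate 3. With a limit of 5 kb in place of 10 kb it was −26.0 and with 50 kb it was −12.0, lower near the start in 3 of 3 lists for both limits (exact permutation p = 0.25). Both limits take in all 17 chromosome 9 regions as near ones. Without them the mean difference was −4.83 at 5 kb, with no common sign (exact permutation p = 0.5), and −4.50 at 50 kb, in 3 of 3 lists (exact permutation p = 0.25). Spearman's correlation between fold enrichment and distance was 0.259, 0.242 and −0.0101 across regions, and without those of chromosome 9 it was 0.0226, 0.106 and −0.0101.

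Hosts were long genes. A total of 291 genes held at least 1 region, which is 1.31% of 22238 gene names, and 132 held a region in at least 2 lists (0.594%). Away from chromosome 9 their median length was 115.5 kb, against 15.4 kb for all coding genes. A base drawn evenly from coding gene records falls in a gene of median length 136.0 kb, and a region other than those of chromosome 9 in one of 125.3 kb. Counting each region under its nearest host, 259 genes had 1 region, 21 had 2, 2 had 3 and 2 had 5.

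The 2 genes with 5 regions were Tex14 and Gm20388. Tex14 encodes a protein of the bridges between germ cells, and 4 of its regions lay in intron 2 and were in replicates 2 and 3. Their fold enrichments were 6.89, 7.31, 5.87 and 5.07 in replicate 2 and 3.68, 5.90, 6.42 and 4.12 in replicate 3. These are copies of a common sequence, as the windows of 2 of them show.
Tex14 chr11:87261959-87262079: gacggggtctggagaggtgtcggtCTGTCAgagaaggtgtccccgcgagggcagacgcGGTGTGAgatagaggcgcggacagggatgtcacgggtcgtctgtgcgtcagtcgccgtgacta
Tex14 chr11:87275569-87275689: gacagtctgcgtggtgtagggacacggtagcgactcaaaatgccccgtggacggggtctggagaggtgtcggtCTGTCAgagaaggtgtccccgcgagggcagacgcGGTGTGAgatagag

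Gm20388 covers other genes, and the nearest starts to its regions were those of Irf8, Foxf1a, Foxc2, 1700018B08Rik and Rhou. Foxf1a and Foxc2 encode forkhead factors of mesoderm, and the region nearest to Foxc2 (chr8:123753534-123753879, 113.6 kb away) was the only one of the 5 in 3 lists, with fold enrichments of 8.28, 9.24 and 5.12.

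Kalrn had 3 regions and encodes a guanine nucleotide exchange factor. Its regions were spread over introns 1, 6 and 27, none was in 3 lists, and all 3 held TGACAG.

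In 89 regions (28.1%) the nearest coding start belonged to another gene than the host, at a median of 47.4 kb, while the host start was at a median of 155.1 kb. Of these, 48.3% were in at least 2 lists, against 41.7% of the rest. When starts of all transcripts were used the share was 20.5%. The strongest 10 in 3 lists paired hosts with nearest starts as follows. The Laptm5 region was 11.3 kb from Matn1, a cartilage matrix gene, and the Slc43a2 region was 21.0 kb from Pitpna, a phosphatidylinositol transfer gene. The Wdpcp region, with fold enrichments of 7.17, 23.1 and 13.0 in a gene of planar cell polarity and cilia, was 66.2 kb from Mdh1. Its host start was almost as near, at 66.3 kb. The Dopey2 region, with 6.02, 14.1 and 13.2, was 41.2 kb from Morc3, and the Tanc1 region, with 6.39, 11.3 and 9.33, was 53.5 kb from Wdsub1. The others were Gnb1l with Gm16314, Btbd9 with Gm9874, Tshz2 with AY702102, Ncald with 4930447A16Rik and Ror1 with Ube2u. For the Gnb1l region the 2 starts were also nearly tied, at 10.5 kb for Gm16314 and 10.6 kb for the host.

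Gene lists for the pharynx, heart and signalling were checked among the hosts. Of 687 genes on 11 lists, 37 held a region (5.39%), and 17 held one in at least 2 lists (2.47%), against 1.31% and 0.594% of all protein-coding genes. Without replicate 2 the hosts numbered 21. Listed genes were longer, with a median of 31.6 kb, and held 0.625 regions per Mb of gene against 0.312 for all coding genes. Per Mb of gene the values were 1.12 for the Wnt list, 0.989 for extracellular matrix, 0.959 for transcription factors, 0.679 for actin and adhesion, 0.517 for axon guidance and 0.474 for chromatin regulators, so these lists stood closer to all coding genes on this scale than by share of genes. They were 0.285, 0.264 and 0.178 for the BMP and TGF-beta, sarcomere and muscle, and FGF lists, and 2.91 for the short ribosomal protein genes, from 1 region each. The lists were chosen with earlier results known, so these shares are descriptions. T-box genes held no region (0 of 17, which allows up to 3 counts in 17).

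**Figure D5:**
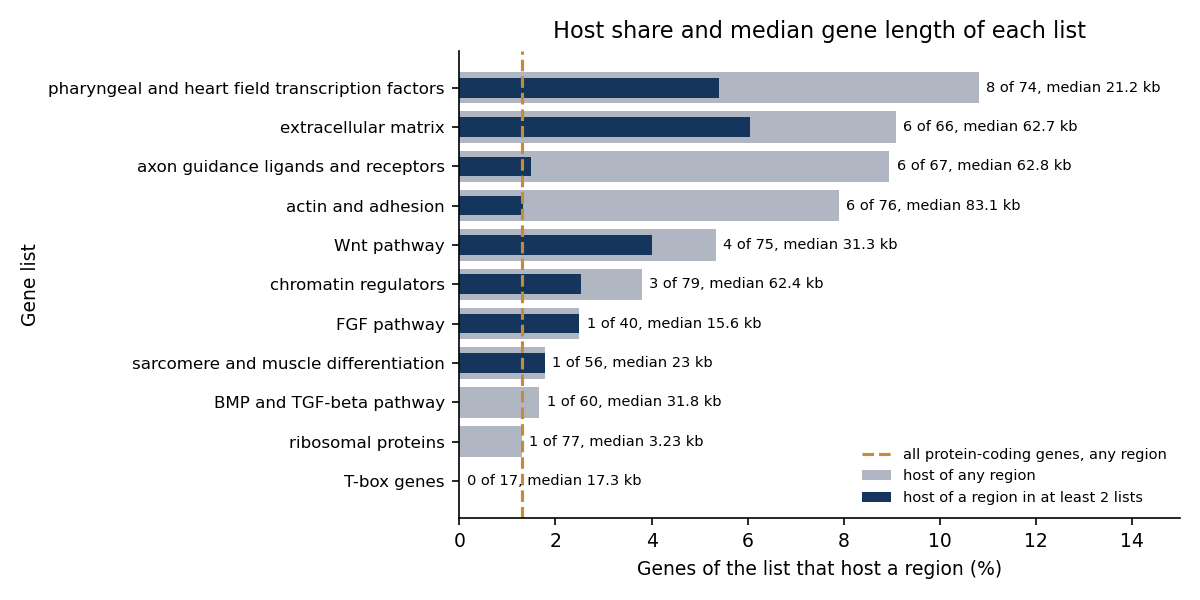
Share of each gene list that holds a region in percent (x axis), for any region (wide grey bars) and for regions in at least 2 lists (narrow dark bars), by list (y axis) with counts and median gene length beside each bar. The dashed line marks 1.31%, the share of all protein-coding genes with any region. By any region, transcription factors stand highest at 8 of 74 genes and T-box genes at 0 of 17. By regions in at least 2 lists, extracellular matrix stands highest at 6.06%, against 5.41% for transcription factors.

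Among transcription factors of the pharynx and heart fields, 8 of 74 were hosts (10.8%). In at least 2 lists were Tshz2, Sox13, Meis3 and Ebf3. Sox13 is an SRY-related factor, and its region in intron 1 (chr1:135303430-135303686) had fold enrichments of 4.97 and 6.43 in replicates 2 and 3. Ebf3, an early B-cell factor gene with roles in connective tissue, had 7.90, 6.12 and 5.80 in intron 6. The regions of Mef2c and Gata6, both central cardiac factors, were in replicate 3 only, at 4.95 and 4.44, and those of Ebf2 and Prrx2 in replicate 2 only. The windows of Sox13 and Ebf3 show the words in them.
Sox13 chr1:135303493-135303613: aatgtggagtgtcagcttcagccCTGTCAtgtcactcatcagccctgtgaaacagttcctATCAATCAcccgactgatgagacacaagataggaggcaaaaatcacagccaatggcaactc
Ebf3 chr7:144458325-144458445: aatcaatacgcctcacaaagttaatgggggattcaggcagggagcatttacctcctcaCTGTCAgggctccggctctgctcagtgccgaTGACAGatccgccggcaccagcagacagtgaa

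The extracellular matrix list had 6 hosts of 66 (9.09%), 4 of them with a region in at least 2 lists. Both fibrillin genes were among these. Fbn2 held a region in intron 5 at 10.8 and 8.93 in replicates 2 and 3, and Fbn1 a region in intron 1 (chr2:125327286-125327626) at 7.24 and 5.80. The Col14a1 region, in intron 44 of 47 of a fibril-associated collagen gene, had 5.86 and 7.50, and the Lama1 region, in a laminin gene, had 7.11 and 4.25 and was a tandem repeat of 6 bases. None of these had a peak in replicate 1. Col3a1 and Col25a1 held regions in replicate 2 only. The Fbn1 window is an array rich in TGACAG, below the limit for a tandem repeat.
Fbn1 chr2:125327435-125327555: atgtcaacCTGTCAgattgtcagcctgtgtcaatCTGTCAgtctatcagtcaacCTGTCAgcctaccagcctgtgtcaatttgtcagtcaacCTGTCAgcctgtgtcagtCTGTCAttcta

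Wnt pathway genes gave 4 hosts of 75 (5.33%), 3 of them in at least 2 lists. Lrp6 is a co-receptor for Wnt ligands and held 2 regions in intron 7. The stronger (chr6:134454874-134455201) had 9.11, 12.5 and 8.19, and the other, of the GGAT family, 7.42 and 7.33 in replicates 2 and 3. Ror1, a receptor for non-canonical Wnt signals, held a region in intron 4 (chr4:100017180-100017697) at 6.27, 16.0 and 11.8, with replicate 1 the lowest. Daam1, a formin that links Wnt receptors to actin, had fold enrichments of 4.97, 5.56 and 5.46 in intron 1. Its summits were 160 bp apart, against a median of 42.0 bp over the 46 regions in 3 lists, its mean percentile was 31.5, and it did not overlap the consensus list. Wnt3, a ligand gene, had 5.08 in replicate 2 only.

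Axon guidance genes gave 6 hosts of 67 (8.96%), but only Slit1 had a region in at least 2 lists, at 9.65 and 6.01 in intron 4. Ntn1, Robo2, Sema3d, Sema4b and Ephb2 were each in replicate 2 only, with fold enrichments of 9.71, 5.86, 6.03, 3.91 and 6.09.
Slit1 chr19:41790865-41790985: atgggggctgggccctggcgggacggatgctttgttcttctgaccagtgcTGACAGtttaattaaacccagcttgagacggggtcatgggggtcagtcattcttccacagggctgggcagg

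Actin and adhesion genes likewise gave 6 hosts of 76 (7.89%), of which 1 was in at least 2 lists. This region lay where Fgf1 and Arhgap26 overlap, at 8.08 and 6.79 in replicates 2 and 3, and Fgf1 was also the only host of 40 FGF pathway genes. Chromatin regulators gave 3 of 79 (Chd1, Chd2 and Dnmt3a), and Chd2 had 7.19, 6.39 and 6.18, 3.66 kb from its start in intron 2. The last 3 lists had 1 host each, with Tnnt1 of 56 sarcomere and muscle genes, Bmp6 of 60 BMP and TGF-beta genes and Rps10 of 77 ribosomal protein genes. Tnnt1 had 7.52, 9.65 and 11.9 in intron 7 and was in all 3 lists.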

How the data were processed

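TBX1 ChIP-seq was done by the authors on 3 pools of mouse embryos. According to the methods and the submitters' processing notes, reads were trimmed, aligned to mm9 with Bowtie2 2.3.4 and kept when unique, and peaks were called per replicate with MACS2 2.1.2.1 over input. The deposited fold enrichment is a ratio of ChIP to local background. The deposited p-value and q-value columns hold −log10 values. The deposited score is the scaled q-value and was not used. The consensus list was made by the authors with bedtools 2.29 from regions in at least 2 replicates, after which peaks on the ENCODE blacklist were removed. That filter was not repeated here.

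Here peaks overlapping by at least 1 bp were merged, and midpoints placed in genes of GENCODE vM1 on NCBIM37. The host was the gene with the nearest start. Introns were numbered in the transcript with the longest coding sequence. Words were searched on both strands, also in windows of equal width 5 kb away. Differences were taken per list and tested by exact sign-flip permutation. Named hosts were those of the 10 highest regions in 3 lists, of 3 or more regions, of listed genes in at least 2 lists, of regions in 3 lists within 1 kb of the start, of the 10 highest whose nearest start was another gene's, and of coding-exon regions in at least 2 lists. Members, lists and words were chosen with earlier results of these data known. Tools were scipy 1.17.1 and numpy 2.4.6 in Python 3.11.15, with pyfaidx 0.9.0.4 for sequence and matplotlib 3.10.9 for plots, and functions were tested on simulated data, where 11 of 11 known answers were recovered. Replicates are numbered as in the labels. By number of peaks, the lists could not be matched to the replicates as the study's text numbers them, so no read depth is given for a list. Another host with 3 regions is not reported here.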

Additional observations from a re-analysis of the deposited data

How the results depend on the processing

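Of 218 values under other settings, 176 had the sign of the reported one and lay within 1.5 times of it, and 9 of 12 tested differences kept their sign throughout. The near minus far difference was −1.33 without chromosome 9, −5.31 at a fold enrichment of at least 3, −6.12 at q-values under 1e-05 and −26.0 with a limit of 5 kb. Without chromosome 9 it was −4.83 with a limit of 5 kb and −4.50 with 50 kb. The difference in shared peaks was 2.64 at q-values under 1e-05 and 9.62 with a reciprocal overlap of 50%. The first-intron difference was 0.628 at q-values under 1e-05, 0.929 without regions within 1 kb of the start, 3.54 in the transcript with the largest span and 4.37 without tandem repeats. The percentile difference inside minus outside genes was −0.168 at q-values under 1e-05 and −3.15 to 3.71 with 1 replicate left out. It was 0.206 to 2.94 under the other settings that moved it by over 1.5 times. The first-intron difference ranged from −0.824 to 3.57 with 1 replicate left out. The consensus share was 46.3% at q-values under 1e-05 and 37.4 to 68.9% with 1 replicate left out, highest without replicate 2. The distance to the host start was 126.3 kb as a mean and 26.0 kb to the nearest transcript start. The share with another gene nearest was 20.5% with all transcript starts. Listed hosts numbered 17 in at least 2 lists and 21 to 37 with 1 replicate left out, lowest without replicate 2. The GGTGTGA difference, −0.806, was 0.0618 with windows on the left, 0.984 in regions of at least 2 lists, 0.0555 without Gm20388, 0.393 without tandem repeats, and −2.27 to 1.06 with 1 replicate left out. The settings without chromosome 9, without Gm20388, without tandem repeats and at a fold enrichment of at least 3 were added after the data were seen. Every tested difference was taken within a list. No pairing between groups by replicate number was possible because there was 1 condition. Peak lists without reads give no depth, and regions near the threshold of a short list cannot be told from absent ones.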
